A study of Callithrix jacchus with 5 samples.

Results

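LIN28A, LIN28B and TRIM71 encode post-transcriptional regulators of pluripotent cells, and their transcripts were followed across 5 RNA sequencing libraries of the common marmoset, a small New World monkey. The genes were taken by symbol, each matched 1 Ensembl identifier, and they are 3 of the 30811 genes in the count table. The libraries are 1 of fibroblasts (title E01F, P number 1), 1 of induced pluripotent stem (iPS) cells and 3 of embryonic stem (ES) lines, each from 1 line. The ES lines are No40 (P number 63), DSY127 (P number 17) and No20 (P number 45), and the labels give no P number for the iPS cells. The iPS cells came from fibroblasts reprogrammed with RNA, per the series title, but the labels used here do not name the delivered factors or say whether LIN28A was among them. They also do not say whether the sequenced fibroblasts were the parent cells, and no treatment or genotype is given for any library.

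LIN28A and LIN28B are paralogous RNA-binding proteins with a cold shock domain and paired zinc knuckles. They bind precursors of the let-7 microRNAs and keep them from maturing, in part by recruiting the uridylyltransferases TUT4 and TUT7, after which the exonuclease DIS3L2 degrades the tailed precursor. TRIM71, known as LIN-41 in C. elegans, carries a RING domain and an RNA-binding NHL domain, represses mRNAs and is itself a classical let-7 target. All are known from ES cells and early embryos, and mature let-7 is known to accumulate as cells differentiate. LIN28A is also one of the factors used to reprogram human fibroblasts.

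Total counts were 58601185 in the fibroblast library, 5746449 in the iPS library and 34111715 to 46523012 in the ES lines, so the iPS library was the shallowest. Values are CPM, counts scaled to a common library size with TMM factors, and 3 counts correspond to 0.063 CPM in the fibroblast library, 0.507 CPM in the iPS library and at most 0.0834 CPM in the ES lines. Intervals of single libraries are 95% exact Poisson intervals and cover counting error only. The cell labels were checked against marker genes. The 8 measured pluripotency markers summed to 26.6 CPM in the fibroblast library, 4405 CPM in the iPS library and 2874 to 5924 CPM in the ES lines. The 19 measured fibroblast markers summed to 107930 CPM in the fibroblast library, 14365 CPM in the iPS library and 5451 to 6619 CPM in the ES lines, and no marker of either list was at 0 in any library.

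In the coordinates of the count table, for which no source used here names a genome build, all of the genes lie on the plus strand. LIN28A (ENSCJAG00000009796) spans 60458377 to 60473397 on chromosome 7 in 4 exons. LIN28B (ENSCJAG00000001671) spans 104315656 to 104463606 on chromosome 4, also in 4 exons. TRIM71 (ENSCJAG00000011921) spans 63464507 to 63547326 on chromosome 17 in 5 exons. The models differ in extent: LIN28A covers 630 bases and ends in an exon of 217 bases, LIN28B covers 5478 bases and ends in an exon of 4892 bases, and TRIM71 covers 2752 bases and ends in an exon of 1534 bases. No other gene of the table overlaps an exon of these genes. An unnamed gene on the minus strand lies within the span of TRIM71 and had 0 to 6 counts per library. The handling of reads that match several places is not given, so reads shared by the LIN28 paralogs would make their values uncertain.

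The transcripts of all 3 genes were close to 0 in fibroblasts and abundant in every pluripotent library. LIN28A had 0.126 CPM (6 counts, interval 0.0462 to 0.274) in the fibroblast library, against 559, 357 and 317 CPM in ES lines No40, DSY127 and No20. LIN28B had 0.189 CPM (9 counts, interval 0.0864 to 0.359) in the fibroblast library, against 671, 656 and 168 CPM in No40, DSY127 and No20. TRIM71 had 0.168 CPM (8 counts, interval 0.0725 to 0.331) in the fibroblast library, against 412, 132 and 87.6 CPM in the same lines. The fibroblast value lay below every ES line and below the iPS library for each gene, as it did for 34.1% of all genes tested.

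All 3 genes fell in the fibroblast library by the edgeR quasi-likelihood test, against a background of 9.28% of 17462 genes tested that were lower. LIN28A averaged 411 ± 130 CPM across ES lines (SD, n = 3) and had a log2 fold change of -11.63 ± 0.82 (SE, adjusted p = 0.00142, edgeR). LIN28B, with an ES mean of 498 ± 286 CPM, had a log2 fold change of -11.34 ± 1.38 (adjusted p = 0.00414, edgeR). TRIM71, with an ES mean of 211 ± 176 CPM, had a log2 fold change of -10.26 ± 1.504 (adjusted p = 0.00707, edgeR), or -9.25 without line No40. Only 0.796% of all genes tested were lower with a log2 fold change under -10, and each of these genes was among them. The fibroblast library has no replicate, so the error of the test comes from the spread among ES lines (2 residual degrees of freedom). The fit moderates this spread with information shared over all genes. In these bulk samples, fewer cells that carry a transcript and less of it per cell cannot be told apart. All 8 measured pluripotency markers also had counts in the fibroblast library, and their part in the 6 to 9 counts of each gene was not tested.

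**Figure D1:**
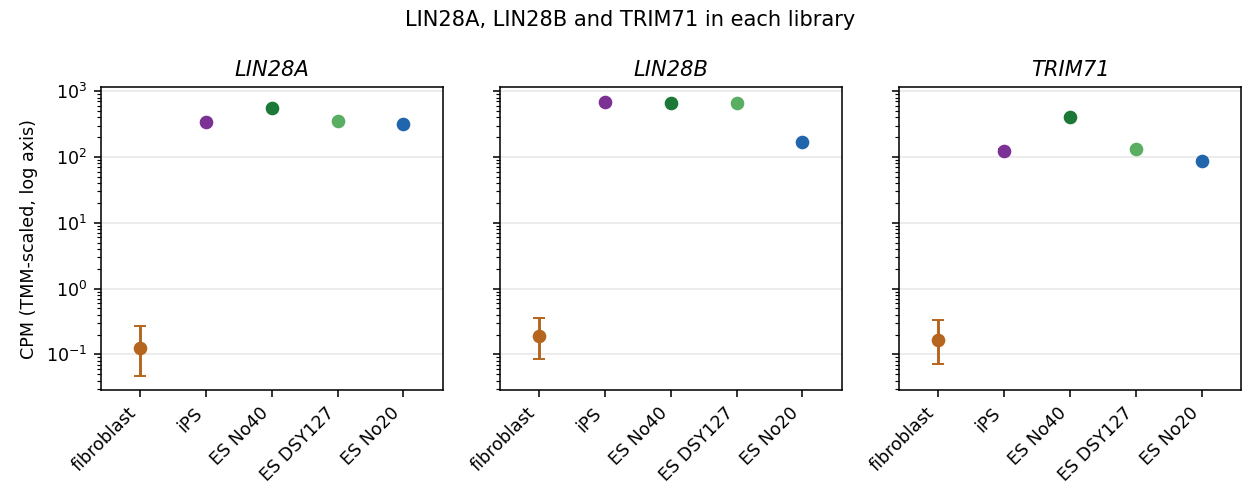
CPM of LIN28A, LIN28B and TRIM71 in each of the 5 libraries, on a log axis; bars are 95% Poisson intervals for counting error and are hidden by the points in the pluripotent libraries. The fibroblast points lie at 0.126 to 0.189 CPM, and the lowest pluripotent point is TRIM71 in line No20, at 87.6 CPM.

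The next comparison asked whether the reprogrammed cells carried these transcripts at ES levels. LIN28A stood at 338 CPM (2003 counts, interval 324 to 354) in the iPS library, between DSY127 at 357 CPM and No20 at 317 CPM. Its interval overlapped that of DSY127 (351 to 363 CPM) but not that of No20 (312 to 322 CPM). LIN28B stood at 687 CPM (4065 counts, interval 666 to 708) in the iPS library, at the top of the order but overlapping No40 (663 to 678 CPM) within counting error. TRIM71 stood at 125 CPM (738 counts, interval 116 to 134) in the iPS library, again between DSY127 (128 to 136 CPM) and No20 (84.9 to 90.4 CPM) and overlapping DSY127. For LIN28A and TRIM71 the iPS value was thus inside the range of the ES lines, as it was for 41.9% of all genes tested, and for LIN28B it was just above.

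None of the 3 genes passed the test between the iPS library and the ES lines. Among all genes tested 0.109% passed, each of them higher in the iPS library. At an unadjusted p under 0.05, which 8.69% of all genes reached, none of the members passed either, and DESeq2 and limma voom called none of them. The log2 fold change was -0.28 ± 0.42 for LIN28A (95% interval -1.29 to 0.73, adjusted p = 0.886, edgeR). For LIN28B it was 0.46 ± 0.70 (interval -1.21 to 2.14, adjusted p = 0.886, edgeR) and for TRIM71 -0.76 ± 0.85 (interval -2.79 to 1.28, adjusted p = 0.841, edgeR). The intervals do not exclude differences of the size seen between ES lines. Single lines set much of these values: without No40 the log2 fold change of TRIM71 turned to 0.17 and that of LIN28A was -0.01, and without No20 that of LIN28B was 0.07. Of the fibroblast markers 2 of 19 rose in the same iPS library, COL1A2 at 3446 CPM in the iPS library against 250 ± 19.04 CPM across ES lines (SD, n = 3) and PRRX1, a mesenchymal homeobox factor, at 389 against 28.7 ± 5.89 CPM, neither of which passed without No40. Others of the list stood lower without passing, among them TAGLN, an actin-binding protein, at 79.1 against 603 ± 362 CPM (log2 fold change -2.93, adjusted p = 0.362, edgeR), which DESeq2 called lower. With edgeR 8 of the 19 markers had an unadjusted p under 0.05, beside 8.69% of all genes. Of these only TAGLN stood lower, and the others stood higher, COL3A1 among them at 1684 against 109 ± 117 CPM. The median log2 fold change of the 19 markers was 0.03. Their part in the values of the members was not tested.

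Set directly against the fibroblast library, the iPS library had 2686-fold the LIN28A, 3634-fold the LIN28B and 742-fold the TRIM71. With 1 library on each side there is no replicate check and no p-value. The log2 ratios of iPS to fibroblast, with exact binomial 95% intervals for counting error, were 11.39 (10.27 to 12.84) for LIN28A, 11.83 (10.90 to 12.96) for LIN28B and 9.54 (8.55 to 10.75) for TRIM71. The width of these intervals comes from the 6 to 9 fibroblast counts.

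**Figure D2:**
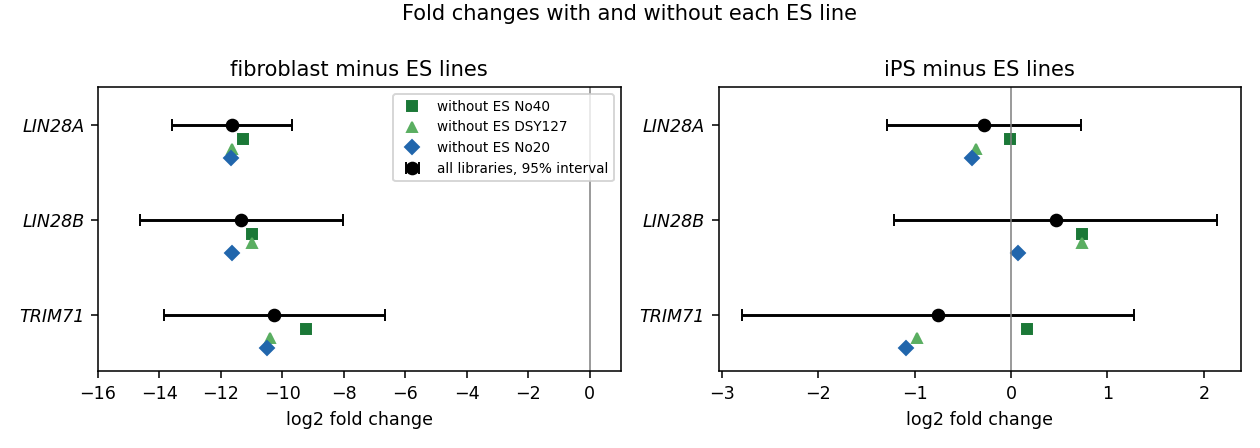
Log2 fold changes of the fibroblast library (left) and the iPS library (right) against the ES lines, with 95% intervals from the edgeR fit in black and the values without each ES line as coloured symbols. All fibroblast values lie below -9, whereas the iPS intervals span 0 and TRIM71 changes sign without No40.

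The ES lines differed from each other in LIN28B and TRIM71 more than in LIN28A, and No20 was the lowest line for all 3 genes. The highest line had 1.76-fold the LIN28A of the lowest, 3.99-fold the LIN28B and 4.70-fold the TRIM71, where the median gene tested had 1.79-fold. A spread between lines as large as that of LIN28A was seen in 51.6% of all genes tested, as large as that of LIN28B in 12.9% and as large as that of TRIM71 in 10.1%. LIN28B in No20 stood 3.95-fold below the mean of the other 2 lines, and 5.37% of all genes tested were at least as low there. TRIM71 in No40 stood 3.75-fold above the mean of the others, and 1.32% of genes were at least as high there. TRIM71 in No20 stood 3.10-fold below the mean of the others, and 7.40% of genes were at least as low there. No40 also had the most LIN28A, 1.66-fold above the mean of the others, and 15.3% of genes were at least as high there. LIN28A in No20 stood 1.44-fold below the mean of the others, and 25.9% of genes were at least as low there. The counting intervals of the lines did not overlap for LIN28A or TRIM71. For LIN28B the intervals of No40 (663 to 678 CPM) and DSY127 (648 to 665 CPM) overlapped. With 1 library per line these are descriptions without a test, and line, P number and library cannot be told apart. Marker sums differed between the lines too: the pluripotency markers summed to 2874 CPM in No20 and 5013 to 5924 CPM in the others. The 4 measured endoderm markers summed to 114 CPM in No20 and 33.1 to 72.8 CPM in the others, but GATA6 alone made up 89.8 CPM of the sum in No20, and GATA4 was lowest there, at 3.59 CPM. The 6 measured germ cell markers summed to 21.5 CPM in No20 and 84.2 to 122 CPM in the others. Much of this gap came from TFAP2C, at 3.66 CPM in No20 against 55.4 and 55.2 CPM in No40 and DSY127. All of these markers but PRDM1 were lowest in No20. PRDM1 stood at 10.9 CPM in No20, against 5.67 CPM in No40 and 19.6 CPM in DSY127. Among these lists no marker was at 0 in an ES line, and their part in the differences of the members was not tested.

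Per length, LIN28A was the most abundant of these transcripts in every pluripotent library. In RPKM, the CPM divided by the length of the gene model in kilobases, LIN28A reached 537 in the iPS library and 888, 566 and 503 in No40, DSY127 and No20. This placed it above at least 99.2% of the genes tested in each of these libraries, and above 18.7% in the fibroblast library, where it had 0.200 RPKM. LIN28B reached 125 RPKM in the iPS library, against 122 in No40, 120 in DSY127 and 30.7 in No20. TRIM71 reached 45.3 RPKM in the iPS library, against 150, 48.0 and 31.8 in No40, DSY127 and No20. LIN28B was therefore above TRIM71 in the iPS library and DSY127, and the levels were near each other in No20 and reversed in No40. Because the models differ in extent, the level of LIN28A rests on 630 bases, and LIN28B is dominated by its last exon.

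The balance between the paralogs varied with the line. The ratio of LIN28A to LIN28B in RPKM was 4.28 in the iPS library, against 7.25 in No40, 4.73 in DSY127 and 16.4 in No20, so that the iPS library lay nearest to DSY127. The ratio of TRIM71 to LIN28B was 0.361 in the iPS library, against 1.22, 0.401 and 1.04 in the same lines, and DSY127 was again the nearest. Ratios within a gene pair do not depend on the library scaling. In the fibroblast library the ratios rest on too few counts to be read.

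Genes of the machinery around LIN28 were examined next. Of 12 measured genes of microRNA processing and Argonaute complexes none passed in the fibroblast comparison with the edgeR quasi-likelihood test, with DESeq2 or with limma voom, and none had an unadjusted p under 0.05. Over all genes tested 9.28% were lower, 8.80% were higher and 34.0% had an unadjusted p under 0.05 with edgeR, so a count of 0 calls in a list this short is not read as a result about these genes. Their median log2 fold change was -0.21, beside -0.15 over all genes tested. DROSHA, which cuts primary microRNA transcripts, stood at 105 CPM in fibroblasts and 104 ± 5.88 CPM across ES lines (SD, n = 3). DICER1, which cuts the precursor, stood at 110 CPM in fibroblasts and 121 ± 35.6 CPM in the ES lines. AGO2, the Argonaute that can slice its target and a known partner of mouse TRIM71, stood at 37.6 against 48.0 ± 17.4 CPM.

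Of 6 measured cofactors of precursor tailing, decay and processing, none passed in the fibroblast comparison with edgeR or limma voom, 1 had an unadjusted p under 0.05, and DESeq2 called that gene, MSI2, lower. These counts too are near the shares over all genes. TUT4 stood at 76.0 CPM in fibroblasts and 72.3 ± 20.3 CPM across ES lines (SD, n = 3), and TUT7 at 48.9 against 31.7 ± 8.21 CPM. DIS3L2 stood at 34.9 against 56.1 ± 11.6 CPM (log2 fold change -0.68, adjusted p = 0.29, edgeR). MSI2, an RNA-binding protein of the Musashi family, stood at 4.75 against 13.7 ± 3.91 CPM (log2 fold change -1.53, adjusted p = 0.119, edgeR). In the iPS comparison none of these processing genes and cofactors passed with edgeR or limma voom. Over all genes tested 0.109% passed there and 8.69% had an unadjusted p under 0.05 with edgeR. The lack of calls is therefore not read as a result about these genes. TNRC6A, a scaffold of silencing complexes, SYNCRIP, an RNA-binding protein that has been linked to microRNA regulation, and MSI2 had unadjusted p under 0.05. They stood at 572, 991 and 34.8 CPM in the iPS library, against 234 ± 31.1, 379 ± 45.3 and 13.7 ± 3.91 CPM in the ES lines, and DESeq2 called SYNCRIP higher.

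Known let-7 targets, the genes downstream of LIN28, moved in both directions in fibroblasts. Of 15 measured targets 4 fell, 1 rose and 10 did not pass, beside 9.28% lower and 8.80% higher over all genes, and their median log2 fold change was -0.66 beside -0.15. ARID3B, a DNA-binding ARID factor, stood at 1.18 CPM in fibroblasts and 116 ± 11.1 CPM across ES lines (SD, n = 3; log2 fold change -6.62 ± 0.52, adjusted p = 0.00158, edgeR). NR6A1, the germ cell nuclear factor, stood at 1.76 against 110 ± 48.9 CPM (-5.96 ± 0.83), and IGF2BP1, an oncofetal mRNA-binding protein, at 51.4 against 221 ± 50.2 CPM (-2.10 ± 0.43). CDC25A, a cell cycle phosphatase, also fell (-1.69 ± 0.38), but not without No40 or without DSY127. THBS1, the matrix protein thrombospondin, rose to 5282 CPM in fibroblasts, against 155 ± 28.4 CPM across ES lines (5.09 ± 0.32).

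The other IGF2BP paralogs and HMGA2 did not pass. IGF2BP2 stood at 303 CPM in fibroblasts, against 74.7, 78.2 and 234 CPM in No40, DSY127 and No20, and it passed as higher without No20. IGF2BP3 stood at 83.2 CPM in fibroblasts and 145 ± 63.7 CPM across ES lines (SD, n = 3). HMGA2, a chromatin protein and one of the best known let-7 targets, stood at 28.2 CPM in fibroblasts, against 18.3 and 15.7 CPM in No40 and DSY127 and 173 CPM in No20. MYC stood at 157 against 249 ± 80.4 CPM. IGF1R, the receptor of insulin-like growth factors, stood at 222 against 63.6 ± 41.2 CPM (log2 fold change 1.80, adjusted p = 0.0946, edgeR) and passed as higher with DESeq2, with no low-count filter, and without No40 or No20. MYCN and CDKN1A matched no identifier and are not analysed here.

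**Figure D3:**
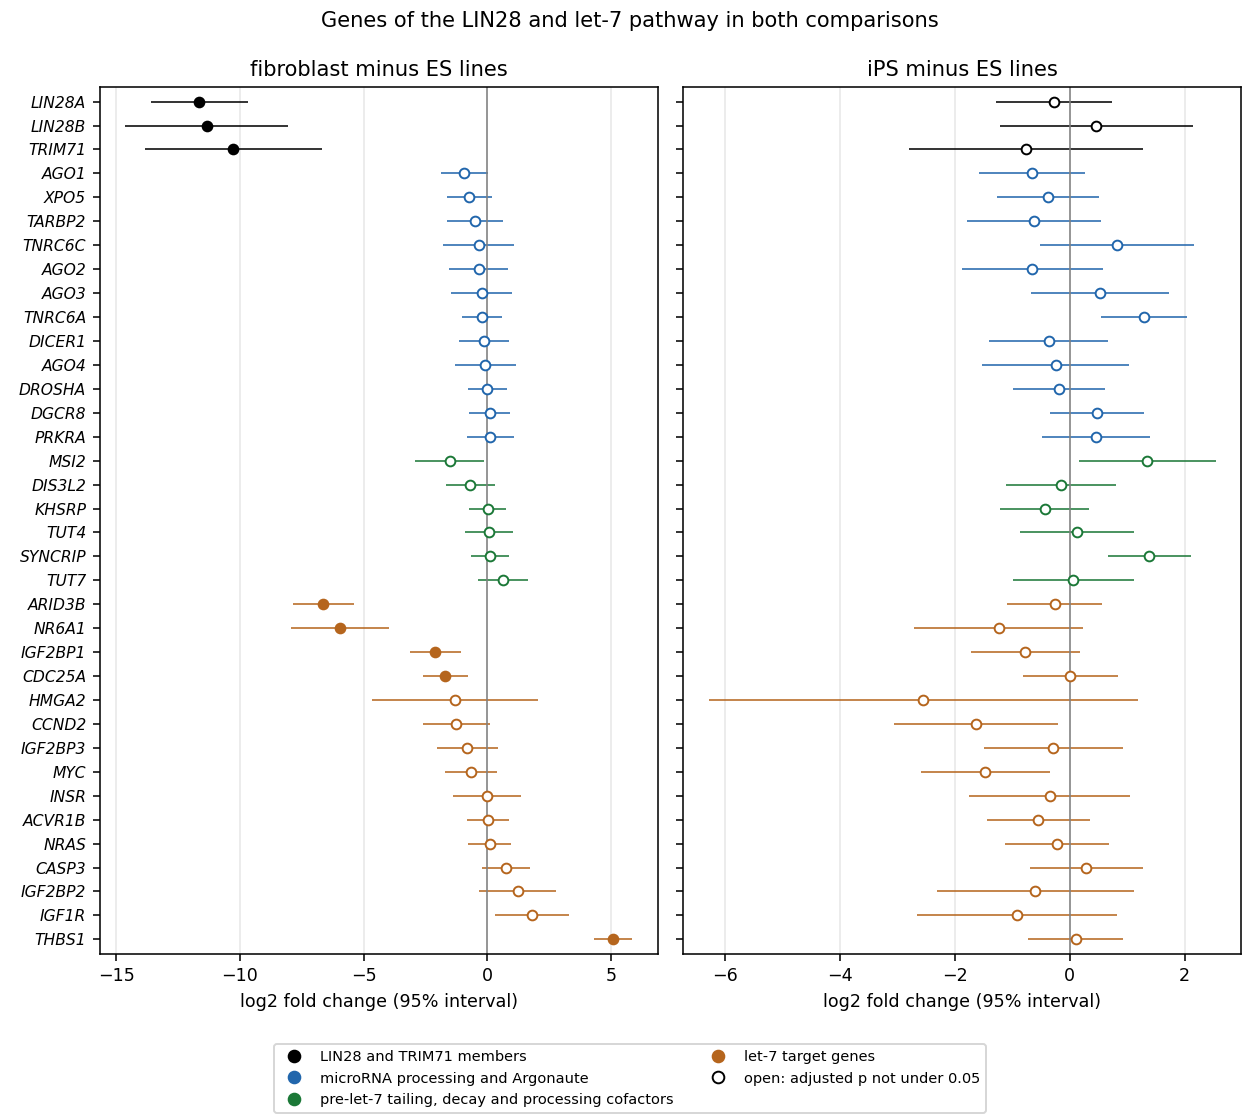
Log2 fold changes of the members, the microRNA processing genes, the precursor cofactors and the let-7 targets in the fibroblast (left) and iPS (right) comparisons, with 95% intervals; filled points passed at an adjusted p under 0.05 and the horizontal scales differ. On the left the members lie at -10.26 to -11.63, the processing genes and cofactors between -1.53 and 0.62, and the targets between -6.62 and 5.09.

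In the iPS comparison none of the 15 let-7 targets passed with edgeR, DESeq2 or limma voom, and MYC and CCND2 had unadjusted p under 0.05. Over all genes tested 0.109% passed and 8.69% had an unadjusted p under 0.05 with edgeR. These counts are therefore not read as a result about the targets. The median log2 fold change of the targets was -0.54, beside -0.11 over all genes tested. MYC stood at 90.1 CPM in the iPS library and 249 ± 80.4 CPM across ES lines (SD, n = 3; log2 fold change -1.47, adjusted p = 0.419, edgeR). CCND2, a D-type cyclin, stood at 27.7 against 85.8 ± 39.5 CPM (-1.63, adjusted p = 0.505, edgeR). HMGA2 stood at 11.8 CPM in the iPS library, below each ES line.

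Among the ES lines, all 3 members were highest in No40 and lowest in No20, though LIN28B in No40 and DSY127 overlapped within counting error. The targets had no common order. HMGA2 in No20, the line with the least of each member, was 10.2-fold above the mean of the other 2 lines. At least as high there were 0.155% of all genes tested. IGF2BP2 was 3.06-fold and CCND2 2.05-fold higher in No20 than in the other lines. Of the 15 targets, 9 were highest in No40, 0 in DSY127 and 6 in No20, where 35.9%, 30.9% and 33.1% of all genes tested were highest. IGF2BP3 and IGF1R were highest in No40, as all 3 members were, with log2 ratios of No40 to the other lines of 1.01 and 1.42. These genes were singled out after their values were seen.

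**Figure D4:**
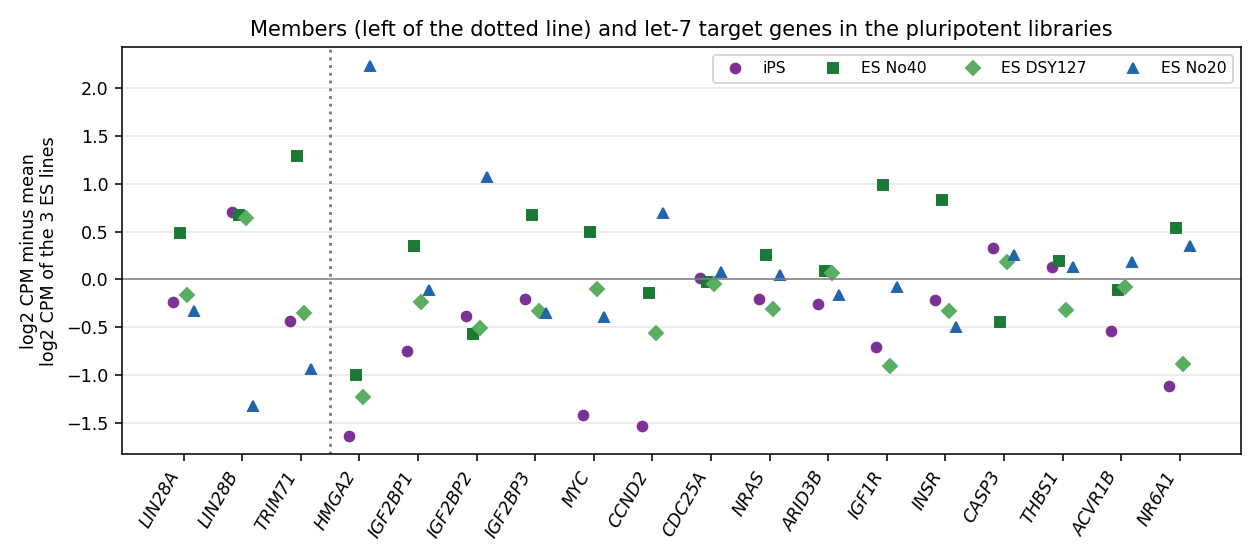
Log2 CPM of each member and let-7 target in the iPS library and the 3 ES lines, each minus the gene's mean log2 CPM over the ES lines. LIN28B has its lowest point and HMGA2 its highest in No20, TRIM71 has its highest in No40, and the iPS points of LIN28A, LIN28B and TRIM71 lie nearest to those of DSY127 or No40.

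Relatives of these genes by protein family were examined in the same fit. Of the measured TRIM genes with an NHL domain, TRIM2 stood at 33.6 CPM in fibroblasts and 91.0 ± 34.7 CPM across ES lines (SD, n = 3; log2 fold change -1.44, adjusted p = 0.114, edgeR). TRIM3 stood at 39.9 against 16.9 ± 2.46 CPM (1.24, adjusted p = 0.0723, edgeR), and DESeq2 called TRIM2 lower and TRIM3 higher. None of the 4 measured genes with a cold shock domain other than LIN28 passed in either comparison with edgeR, DESeq2 or limma voom. YBX1, the most abundant of them by CPM in the fibroblast library, stood at 1438 CPM there and 1200 ± 278 CPM across ES lines. In the fibroblast comparison the log2 fold changes of these genes lay between -0.12 and 0.26, and none had an unadjusted p under 0.05. YBX3 had an unadjusted p under 0.05 in the iPS comparison, with 116 CPM in the iPS library against 376 ± 199 CPM across ES lines. Of 3 measured mRNAs known as TRIM71 targets 1 passed as higher in fibroblasts, beside 8.80% of all genes tested. This was RBL2, a relative of the retinoblastoma protein, at 84.7 against 20.8 ± 7.0 CPM (2.03 ± 0.46, adjusted p = 0.0278, edgeR). It did not pass without No40 or with total counts alone. The others, RBL1 at 43.8 against 21.7 ± 6.91 CPM (1.01) and AGO2 at 37.6 against 48.0 ± 17.4 CPM (-0.35), did not pass. HUWE1, the only measured host gene of let-7 family members, stood at 787 CPM in fibroblasts and 598 ± 190 CPM across ES lines and did not pass (adjusted p = 0.533, edgeR). Between the iPS library and the ES lines, none of the TRIM genes with an NHL domain, the TRIM71 targets and HUWE1 passed with edgeR, DESeq2 or limma voom, and of these 1 TRIM gene had an unadjusted p under 0.05 with edgeR.

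Markers of other cell types gave the following counts in the fibroblast comparison by the edgeR quasi-likelihood test. Over all genes tested 9.28% were lower and 8.80% were higher. All 8 pluripotency markers fell and 18 of 19 fibroblast markers rose. Of 6 germ cell markers 1 fell, of 4 neural markers 1 rose and 1 fell, of 4 endoderm markers 3 fell and of 3 mesoderm markers 2 fell. The germ cell count is near the background, and it was 3 without No20, 2 with DESeq2 and 0 with limma voom. None of 3 trophoblast and amnion markers passed with edgeR or limma voom. DESeq2 called 1 of them lower, as did edgeR without No20, and edgeR gave 1 an unadjusted p under 0.05. Without No40 none of the germ cell and neural markers and 1 mesoderm marker passed. Between the iPS library and the ES lines, no marker of these lists passed in the edgeR fit of all 5 libraries apart from the fibroblast markers COL1A2 and PRRX1, which rose. TFAP2A, a transcription factor of the AP-2 family listed among the trophoblast and amnion markers, stood at 235 CPM in the iPS library, against 7.90, 11.0 and 3.61 CPM in No40, DSY127 and No20. Its log2 fold change of 4.97 ± 0.56 just missed the threshold (adjusted p = 0.0507, edgeR), and it passed as higher in 7 of 11 alternatives. The fibroblast markers COL1A1, COL5A2, TWIST2 and FAP passed as higher with no low-count filter, with DESeq2 and without No20. In the iPS comparison 8 of 19 fibroblast markers had an unadjusted p under 0.05 with edgeR, beside 8.69% of all genes tested. Among the lists with no call there, 1 neural, 1 endoderm and 1 trophoblast and amnion marker had an unadjusted p under 0.05, and 0 pluripotency, germ cell and mesoderm markers did. DESeq2 called 6 fibroblast markers and 1 trophoblast and amnion marker higher and 1 fibroblast and 1 endoderm marker lower there, and limma voom called 1 fibroblast marker higher and 0 of the other lists. The trophoblast and amnion markers summed to 304 CPM in the iPS library, against 22.2, 253 and 15.7 CPM in No40, DSY127 and No20, with CDX2 at 0 in the iPS library. The high sums came from different genes, TFAP2A in the iPS library and KRT7 in DSY127, and KRT7, a keratin, stood at 68.8 CPM in the iPS library, against 241 CPM in DSY127.

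The genes whose pattern over the 5 libraries was most like each member were found by the root mean square difference of centred log2 CPM, among 11463 other genes with a symbol. For LIN28A they were NANOG (0.48), CDH1 (0.49), PYY (0.56), ESRP1 (0.60) and POU5F1 (0.63). For LIN28B they were CDH1 (0.28), LIN28A (0.68), A2ML1 (0.77), NANOG (0.82) and POU5F1 (0.82). The E-cadherin gene CDH1 had 0.231 CPM in the fibroblast library, 579 CPM in the iPS library and 817, 527 and 212 CPM in No40, DSY127 and No20, so that it too was lowest of the ES lines in No20. For TRIM71 they included PRDM14 (0.42), DRC1 (0.52), SALL4 (0.58) and HPN (0.60). PRDM14, a germline and pluripotency factor, stood at 0.294 CPM in the fibroblast library, 155 CPM in the iPS library and 305, 195 and 78.0 CPM in the same lines, the order of TRIM71 among the ES lines. With a prior count of 0.5 in place of 2 in the log2 CPM, only CDH1 for LIN28A, CDH1 and A2ML1 for LIN28B and PRDM14 for TRIM71 stayed in these lists. The lists were chosen by likeness over the same 5 libraries, so a shared order of the ES lines is no separate result.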

How the data were processed

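The deposited values are raw whole-number counts of reads for every gene in each of 5 libraries, and the counts were identical in the table of all libraries and in the files per library. Total RNA was extracted with an RNeasy Mini kit, per the labels' protocols. The submitters' processing notes list featureCounts 1.5.2, STAR 2.5.3a and Trim Galore 0.4.0, without role or order. No source used here gives the build or the strand and multi-mapping settings. Gene length is that of the deposited table.

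Of 30811 identifiers 12660 (41.1%) were paired with a symbol by the name table, and of 132 entries in 15 gene lists 95 matched. In R 4.3.3 with edgeR 4.0.16, genes were kept with filterByExpr (17462, all members among them) and scaled with TMM. The factors were 0.813 for the fibroblast library, 1.03 for the iPS library and 1.05 to 1.07 for the ES lines. All 5 libraries entered 1 quasi-likelihood fit with group as factor. Calls used a Benjamini-Hochberg adjusted p under 0.05 over all genes. The SE is the log2 fold change divided by the root of the F statistic, and its 95% interval uses the fit's degrees of freedom. P-values measure the spread between the ES lines only, which edgeR moderates with information shared over all genes. Each unreplicated library is taken to vary as an ES line does. Log2 CPM used a prior count of 2. Reads carry no molecular identifiers.

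Genes named follow a rule: the members, a set list of pathway genes and markers, called list members and the 5 genes most like each member. Not all are printed, and others were named after their values were seen. The members and lists were chosen with earlier results of these data known. DESeq2 1.42.0, limma 3.58.1 voom, other scalings and filters, fits of only the compared groups and leaving out each ES line were the alternatives.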

Additional observations from a re-analysis of the deposited data

How the results depend on the processing

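In the fibroblast comparison LIN28A, LIN28B and TRIM71 kept their direction and passed in all 11 alternatives. In the iPS comparison none of them passed in any, and TRIM71 turned to 0.17 without ES line No40. Without each ES line in turn the log2 fold changes in the fibroblast comparison ranged from -11.67 to -11.27 for LIN28A, -11.64 to -10.98 for LIN28B and -10.51 to -9.25 for TRIM71. In the iPS comparison they ranged from -0.41 to -0.01, 0.07 to 0.74 and -1.09 to 0.17. The counts over all genes moved more. In the fibroblast comparison 1537 genes were higher and 1620 lower, 2718 lower with DESeq2 and 1009 lower with limma voom, and without each line 924 to 2184 higher and 818 to 2366 lower. The split was 1066 higher and 2016 lower with total counts alone, 1674 and 1009 with limma voom, and 1201 and 1859 with upper-quartile factors. Total counts alone and upper-quartile factors shifted log2 fold changes over all genes by a median of -0.38 and -0.26. In the iPS comparison 19 genes were higher and 0 lower with edgeR, 1518 at an unadjusted p under 0.05. The counts were 198 higher and 6 lower with no low-count filter, 349 and 67 with DESeq2, 5 and 0 with limma voom, and 0 to 256 higher and 0 to 12 lower without each line. The cause was not tested. The iPS to fibroblast ratios moved within their counting intervals. No paired analysis was possible because the fibroblast and iPS groups hold 1 library each. Depth was lowest in the iPS library, where 3 counts correspond to 0.507 CPM.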
